A study of Mus musculus with 2 samples.

Results

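Klk6 and Serpinb1a oligodendrocytes are mature, myelinating cells that hold RNA for the secreted protease Klk6, the protease inhibitor Serpinb1a, or both. They were chosen here by a UMI rule. A UMI is a molecular tag that counts 1 captured RNA molecule once. A cell had to hold at least 500 genes and under 20% mitochondrial UMIs, at least 10 UMIs over Mog, Mag, Ermn and Mobp, at most 5 over Snap25 and Syt1, and at most 1 of Cldn5. Cells past these gates were taken as oligodendrocytes, and those with at least 2 UMIs over Klk6 and Serpinb1a were the members. The rule found 1099 members among 2379 oligodendrocytes, 17584 cells past the filters and 18368 barcodes. A further 849 oligodendrocytes held neither transcript and served as the contrast.

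The cells come from 2 libraries of dissociated preoptic area, a hypothalamic region that holds sleep-promoting neurons. The mice were C57BL/6J and 9 to 10 weeks old. The study used them to look for preoptic neurons that are active in rebound sleep. Wild-type mice of the SD library were kept awake for 6 h, and those of the SD+RS library were kept awake for 6 h and then slept for 2 h. Each library pooled males and females, was prepared with Act-seq, a dissociation method that blocks new transcription with an inhibitor, and was run on the 10x Genomics platform. No library of undisturbed mice was analysed here, and how many mice went into each pool is not stated in the labels. With 1 library per group there is no spread between mice. Every interval below is a 95% interval for counting error only, and no comparison carries a test.

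Oligodendrocytes wrap axons in myelin, and mature ones fall into several transcriptional types. One type, marked by Klk6, Hopx, S100b and Anxa5, is best known from white matter and the spinal cord. Another, marked by Opalin, Il33 and Ptgds, is common in grey matter of the forebrain. Klk6 is a trypsin-like secreted protease of the kallikrein family, and Serpinb1a is an intracellular inhibitor of neutrophil proteases.

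Members made up 43.3% of oligodendrocytes in SD (645 of 1490, exact Clopper-Pearson interval 40.8 to 45.8) and 51.1% in SD+RS (454 of 889, 47.7 to 54.4). The rule counts raw UMIs, and members were deeper cells, with a median of 9669 UMIs in SD and 9712 in SD+RS against 6123 and 5899.5 in cells with neither transcript. After each cell was thinned to 2000 UMIs, leaving out 6 and 12 shallower cells, 12.7% of oligodendrocytes in SD and 14.8% in SD+RS still held 2 or more UMIs of the pair. Among cells with 3000 to 10000 UMIs the shares were 33.6% and 40.4%. The SD+RS share was the higher at each of these settings, but 1 pool of mice per group cannot place that gap against the spread between mice.

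The label was checked against its markers, and the rule turned out to be carried by Serpinb1a. A Serpinb1a UMI was present in 99.5% of the SD members and 99.6% of the SD+RS members. Klk6 was at 0 in 423 SD members (65.6%) and 290 SD+RS members (63.9%). A middle group with 1 to 4 Klk6 UMIs held 123 and 108 cells. A Klk6-high group with 5 or more held 99 cells in SD (15.3% of members, 6.64% of oligodendrocytes) and 56 in SD+RS (12.3% and 6.299%). This split was chosen after the distribution had been seen. Klk6-high members had a median of 13 Klk6 UMIs in both libraries and at most 36 in SD and 41 in SD+RS. Their Serpinb1a count had a median of 5 in both libraries, against 3 in members without Klk6. These are raw counts, and Klk6-high cells were deeper, with medians of 12273 and 13575 UMIs against 8430 and 8676.5. Scaled to all UMIs, Serpinb1a did not pass 1.5-fold between these groups in both libraries. Members without Klk6 had to hold at least 2 Serpinb1a UMIs to pass the rule. Klk6-high cells passed on Klk6 alone, so both Serpinb1a comparisons are partly fixed by the rule. The name Klk6 Serpinb1a oligodendrocyte therefore describes the Klk6-high cells, while most members were Serpinb1a-positive cells with no Klk6 UMI.

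**Figure D1:**
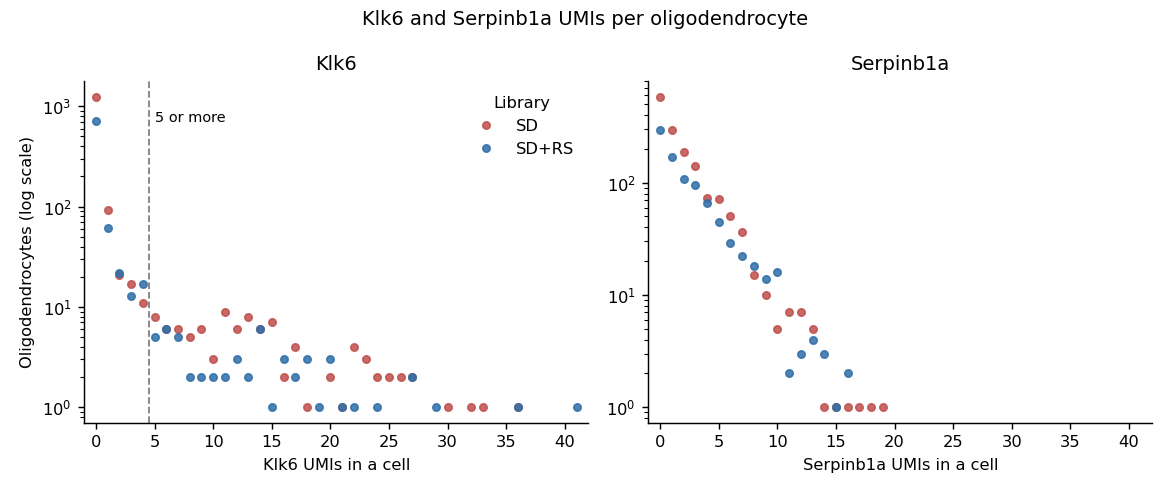
Number of oligodendrocytes (y axis, log scale) with each count of Klk6 UMIs (left) or Serpinb1a UMIs (right) in a cell, for the SD library (red) and the SD+RS library (blue); the dashed line marks 5 Klk6 UMIs. Klk6 counts run to 36 in SD and 41 in SD+RS with most cells at 0, while Serpinb1a counts stop at 19 and 16.

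The pair overlapped. In SD, 91.3% of oligodendrocytes with a Klk6 UMI also held Serpinb1a (interval 86.9 to 94.5), against 55.0% of those without Klk6 (52.2 to 57.7). In SD+RS the shares were 95.9% (91.7 to 98.3) and 60.3% (56.6 to 63.9). Cells with Klk6 were deeper, and the part of depth in this gap was not tested. Outside the oligodendrocytes both transcripts were rare. A Klk6 UMI was found in 0.183% of 2732 SD neurons (median 20316.5 UMIs) and in 0 of 3002 SD+RS neurons, where the 3-count floor for cells holding a UMI is 0.0999%. Serpinb1a was at 0 in 259 and 182 microglia and in 238 and 163 oligodendrocyte precursors. Serpinb1a was found in 2.97% of SD endothelial cells (median 4551 UMIs) and 5.87% of SD+RS ones (median 4687.5), far under the 60.8% and 67.0% of oligodendrocytes (median 7142 and 7148).

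Values on either side of the threshold are given as a description. Cells with exactly 1 UMI of the pair numbered 282 in SD and 149 in SD+RS, and cells with exactly 2 numbered 173 and 104. Anln was at 289 and 328 counts per 1000000 UMIs in SD cells with 1 and 2 UMIs, and at 224 and 277 in SD+RS. S100b was at 84.9 and 95.5 in SD, and at 62.4 and 95.5 in SD+RS. The myelin gate cut little, since 3 SD cells and 5 SD+RS cells held 5 to 9 UMIs of its genes and 7 and 7 cells held 10 to 14.

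Klk6 spans chr7:43824499-43832030 on the plus strand of GRCm38, and Serpinb1a spans chr13:32842092-32851185 on the minus strand. Promoter sequences from RefSeq (GRCm38.p6) matched 12 of 13 genes named for them, and Serpinb1a did not match. The stretches before 1 start of Klk6, and before the starts of Hopx, a homeodomain-only cofactor that was highest where Klk6 was, and of Opalin, a myelin glycoprotein that ran the other way, are shown because the results turn on these genes. Capitals mark ACAANG on either strand, searched with overlapping matches allowed. It is a form of the core letters that SOX factors such as Sox10 recognise. They lie at chr7:43824294-43824498 (plus strand, 205 bases outside exons), chr5:77115124-77115373 (minus strand) and chr19:41077114-41077363 (minus strand).
Klk6: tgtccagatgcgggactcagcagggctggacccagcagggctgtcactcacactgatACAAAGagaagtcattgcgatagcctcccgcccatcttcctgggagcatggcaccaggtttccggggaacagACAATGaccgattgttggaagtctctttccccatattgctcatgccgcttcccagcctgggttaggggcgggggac
Hopx: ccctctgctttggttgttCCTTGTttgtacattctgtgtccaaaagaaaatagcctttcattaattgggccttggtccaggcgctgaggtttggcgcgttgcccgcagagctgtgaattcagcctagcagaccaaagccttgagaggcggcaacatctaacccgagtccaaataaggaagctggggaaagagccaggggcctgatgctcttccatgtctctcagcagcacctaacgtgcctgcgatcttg
Opalin: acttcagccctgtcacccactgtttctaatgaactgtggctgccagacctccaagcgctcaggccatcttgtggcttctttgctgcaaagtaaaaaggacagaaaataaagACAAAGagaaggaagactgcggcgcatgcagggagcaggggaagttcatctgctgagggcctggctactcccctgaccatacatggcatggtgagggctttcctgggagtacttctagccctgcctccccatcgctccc
In these windows Klk6 held 2 matches, Hopx 1 and Opalin 1. The window of a second RefSeq start of Klk6, chr7:43825200-43825394, held 0. Matches to these letters are common, since 31.6% of all 32851 promoters hold one in the 205 bases that correspond to the Klk6 stretch, and 36.3% in 250 bases. The same search found 0 in Anln and 0 in Hapln2. A match is a description of the letters only.

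Levels across the members followed Klk6, not membership alone. Levels are counts per 1000000 UMIs summed over a class (CPM). Anln, the actin and septin binding protein that builds the septin scaffold of mature myelin, was at 173 in SD cells with neither transcript, 358 in members without Klk6, 532 in members with 1 to 4 Klk6 UMIs and 753 in Klk6-high members. In SD+RS the same order ran 146, 264, 472 and 576. Hapln2, a link protein of the matrix at nodes of Ranvier, went from 393 through 549 and 748 to 891 in SD and from 354 through 553 and 734 to 828 in SD+RS. The Klk6-high cells were also the deepest, with medians of 12273 and 13575 UMIs against 8430 and 8676.5 in members without Klk6, and the part of depth was not tested. Anln and Hapln2 were highest where Klk6 was highest, in each library. An Anln UMI was present in 58.1% and 57.7% of cells with neither transcript and in 100% of the Klk6-high cells, against 1.02% and 0.999% of neurons, whose median depth was 20316.5 and 20020.5 UMIs.

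Other genes of the Klk6 type separated the Klk6-high cells more sharply. S100b, a calcium-binding protein, was at 89.9 in SD cells with neither transcript, 107 in members without Klk6, 430 at 1 to 4 Klk6 UMIs and 1584 in the Klk6-high group. The SD+RS values were 70.4, 67.2, 455 and 1158. Hopx was at 1.66, 4.57, 29.98 and 258 in SD, and at 1.77, 2.46, 35.8 and 146 in SD+RS. A Hopx UMI was seen in 84.8% and 83.9% of Klk6-high cells and in 4.49% and 2.76% of members without Klk6. Members without Klk6 thus stood near the cells with neither transcript for S100b and above them for Anln. Hapln2 was also above, but did not pass 1.5-fold in both libraries. Hopx rested on 21 UMIs in SD and 8 in SD+RS in members without Klk6. Cells with neither transcript held 7 and 4 Hopx UMIs, too few to place it.

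Nkx2-9, a homeobox transcription factor, was at 0.475, 3.70, 19.6 and 117 over the same classes in SD. In SD+RS it was listed with 0 UMIs in cells with neither transcript and then at 2.46, 19.1 and 82.8. Anxa5, a calcium-dependent phospholipid-binding protein, reached 256 and 224 in Klk6-high cells, against 33.9 and 31.1 in members without Klk6. Serpind1, the thrombin inhibitor heparin cofactor II, reached 76.9 and 58.3, against 6.96 and 5.85. Enpp6, a choline phosphodiesterase best known as a marker of newly formed oligodendrocytes, reached 249 and 236, against 52.9 and 41.6, and was present in 96.0% and 100% of Klk6-high cells. Gpr17, the receptor of committed precursors, was at 0 UMIs in the SD Klk6-high cells, so Enpp6 was not accompanied by Gpr17 there. The SD+RS Klk6-high cells held 32 Gpr17 UMIs in 8.93% of cells.

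Opalin, Ptgds and Il33 of the Opalin and Il33 list ran the opposite way, but the list as a whole did not. Of its 11 genes, 3 were lower and 2 higher in Klk6-high cells than in members without Klk6. The median log2 ratio of the list was -0.05 in SD and -0.16 in SD+RS. Opalin was at 595 in SD cells with neither transcript and at 470, 317 and 131 across the Klk6 groups, and in SD+RS at 1241, 889, 584 and 446. Ptgds, the prostaglandin D synthase of the brain, went from 33921 to 24883, 14747 and 8589 in SD and from 39686 to 32104, 18523 and 14488 in SD+RS. Il33, a nuclear cytokine, was level between cells with neither transcript (1065 and 1089) and members without Klk6 (1036 and 1142). It was lower in Klk6-high cells, at 340 and 442.

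**Figure D2:**
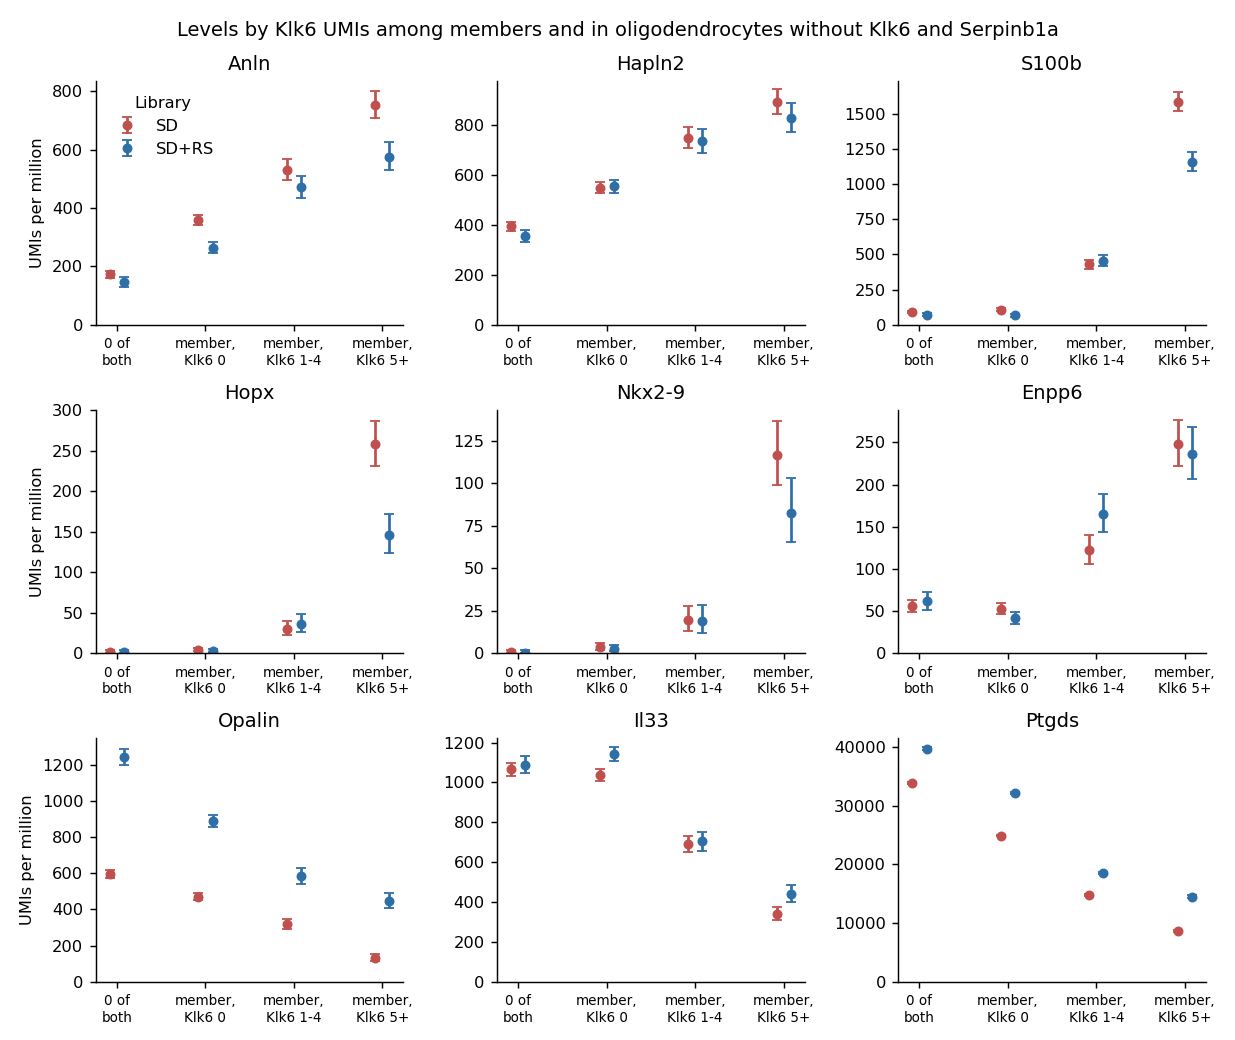
CPM of 9 genes (1 panel each, y axis from 0) in oligodendrocytes with neither transcript and in members with 0, 1 to 4 and 5 or more Klk6 UMIs (x axis), for SD (red) and SD+RS (blue); bars are exact Poisson 95% intervals for counting error. S100b, Hopx, Nkx2-9 and Enpp6 are highest in the last class and Opalin, Il33 and Ptgds lowest, in both libraries.

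Apod, Selenop and Trf of the same list ran against Opalin. Apod, a lipid-carrying lipocalin, was listed with Opalin but went up with Klk6, from 1144 in SD cells with neither transcript to 1926, 2619 and 3845, and from 1021 to 3047 in SD+RS. Selenop, a selenium transport protein, went from 480 to 2166 and from 335 to 1553 between the same end classes. Trf, transferrin, the iron carrier that oligodendrocytes make, went from 4311 to 9256 and from 4683 to 8356. These are secreted proteins or carriers, and their direction was the same in both libraries.

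Mbp, the myelin basic protein gene, was at 6922 in SD cells with neither transcript and 7996 in Klk6-high cells, and at 6590 and 7239 in SD+RS. Sox10, the lineage factor that all oligodendrocytes keep, was at 264 and 262 in SD and 319 and 318 in SD+RS. Myrf, the driver of myelin gene expression, was at 290 and 296, and at 273 and 289. These genes are given as examples, and the myelin and lineage lists are counted below. Every member held Mbp UMIs in both libraries, but the rule had already selected cells on myelin genes.

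Over all genes, a gene was called when its ratio passed 1.5-fold the same way in both libraries with both intervals excluding 1. Members over cells with neither transcript gave 129 genes higher (1.52% of 8484 measured) and 193 lower (2.27%). Since the rule picked the cells from the same counts, these numbers describe the members and test nothing. The median log2 ratio over all genes was -0.00 in SD and 0.02 in SD+RS. Of 8 genes listed from the literature for the Klk6 type, 4 were higher (Hopx, Anxa5, S100b and the glutathione transferase Mgst3) and 0 lower, with a median of 0.69 in SD and 0.55 in SD+RS. Of 11 genes of the Opalin and Il33 list, 3 were higher and 2 lower, with a median of 0.25 in SD and 0.35 in SD+RS. In the myelin list 1 of 22 was higher (Pmp22) and 3 lower (Opalin, Cd9 and Mpzl1).

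Protease inhibitors and calcium-binding proteins were also described as groups. Of 5 measured serpins, Serpinb1a was higher because the rule selected on it, and Serpind1 was higher as well. Serpine2, an inhibitor of thrombin and plasminogen activators, was lower, at 34.1 against 77.4 in SD and 19.7 against 48.7 in SD+RS. Of 7 annexins and S100 proteins, 3 were higher (Anxa5, S100a6 and S100b) and 0 lower. Of 19 kallikreins and protease-activated receptors in the list, Klk6 alone had enough UMIs to be measured. Of 15 lineage transcription factors, Hopx was higher and 0 were lower, and of 22 cholesterol synthesis genes 0 passed either way.

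By the rule that ranks called genes on the smaller of the libraries' ratios, the genes highest in members were Hopx, Nkx2-9, Rab37, S100b, Slc45a3, Rapgef5, Serpind1, Agmo, 2700046A07Rik, Tln2, Cdkn1c and Aven. Hopx had log2 ratios of 5.04 and 4.33. S100b had 2.28 and 2.32. Slc45a3, a solute carrier, had 2.71 and 1.99 on 0.949 and 2.66 CPM in the cells with neither transcript. Cdkn1c, a cyclin-dependent kinase inhibitor, had 1.54 and 1.76. No member cell gave more than 7.08% of the member UMIs of any of these 12 genes in either library.

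The genes lowest in members were Tnr, Slc1a1, Tmem2, Sox4, Tnfrsf21, 9630013A20Rik, Igfbp7, Gpr17, Prom1, Pik3r3, Marcks and Kank1. Tnr, a node matrix glycoprotein, was at 4.10 against 45.6 CPM in SD and 3.47 against 33.2 in SD+RS. Marcks, an actin regulator of growing processes, was at 37.3 against 237 and 62.7 against 234. Gpr17 was at 4.23 against 50.3 and 12.04 against 49.6, and was seen in only 4.62% and 7.34% of the cells with neither transcript. Single cells carried much of some values. One SD+RS cell gave 97.0% of the Igfbp7 UMIs of cells with neither transcript. The summed 6 astrocyte markers were at 260 CPM in SD members and 653 in SD cells with neither transcript. In SD+RS they were at 204 and 241. Their part in this contrast was not tested. Without the cells that held a Gpr17, Bmp4 or Tnr UMI, an alternative chosen after seeing the data, 82 genes were lower in place of 193. Among cells with 3000 to 10000 UMIs, 46 were. Fewer cells entered both of these counts and the number of genes measured was not listed, so they do not size the contrast. Of the 12 lowest genes, 8 fell under the UMI minimum without the cells that held Gpr17, Bmp4 or Tnr, and Pik3r3 (-0.32) and Kank1 (-0.64) lost their call. Among cells with 3000 to 10000 UMIs, all 12 fell under the minimum, as did 8 of the 12 highest.

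**Figure D3:**
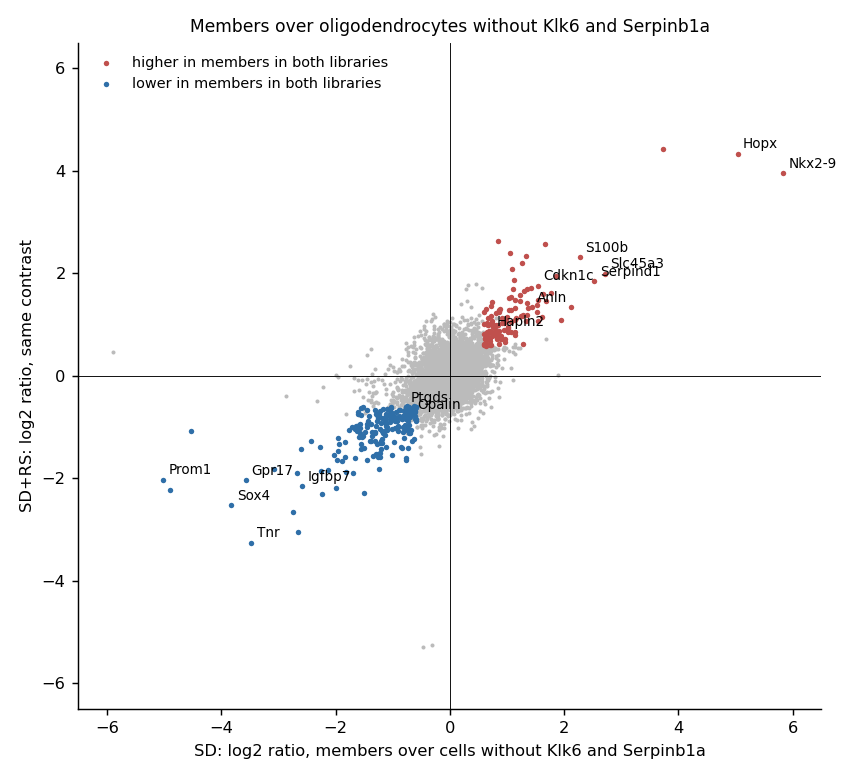
Log2 ratio of members over oligodendrocytes with neither transcript for 8484 genes, in SD (x axis) and SD+RS (y axis); red genes were higher and blue genes lower in both libraries past 1.5-fold. Hopx, Nkx2-9 and S100b lie at the upper right and Tnr, Sox4 and Gpr17 at the lower left, Klk6 and Serpinb1a lie outside the axes, and a gene with 0 UMIs in a class is drawn at the bound set by a floor of 3 counts.

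Within the members, 156 genes were higher in Klk6-high cells than in members without Klk6 (2.23% of 6993) and 99 lower (1.42%). The highest were Hopx, Nkx2-9, S100b, Serpind1, Cdkn1c, Anxa5, 2700046A07Rik, Enpp6, Rapgef5, Faah, Tln2 and Tspan9. Faah, the hydrolase of the endocannabinoid anandamide, was at 59.5 against 12.4 CPM in SD and at 50.1 against 11.1 in SD+RS. Cdkn1c was at 46.7 against 5.66 and 58.3 against 8.01. Rapgef5, an exchange factor for Rap proteins, was at 90.4 against 20.01 and 57.3 against 8.32. Tubb3, a tubulin listed here as a neuron marker, was at 283 against 82.7 in SD and 200 against 78.9 in SD+RS, while Snap25 and Syt1 were held low by the gate. The 12 lowest genes included F3, Gja1, Gm3764, Ptprz1, Cldn10, Gria2, Ntrk2, Ednrb, Ntsr2, Agt and Slc6a11, of which several are astrocyte genes. The summed 6 astrocyte markers were at 312 CPM in SD members without Klk6 and 100.2 in Klk6-high cells, and at 224 and 101.2 in SD+RS. Their part in these genes was not tested. Among cells with 3000 to 10000 UMIs, fewer cells entered and the number of genes measured was not listed. At that setting 101 genes were higher and 59 lower, and Ntrk2 (0.089) and Agt (0.999) changed direction. Ntsr2 (-0.088) lost its call there. Of the 12 lowest and 12 highest genes, 9 each fell under the UMI minimum among those cells. Without marked doublets 8 of the 12 lowest fell under the minimum, and Ntrk2 (-0.62) and Slc6a11 (-0.37) lost their call.

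Members without Klk6 were also set against the cells with neither transcript. In that contrast 32 genes were higher (0.414% of 7725) and 131 lower (1.70%). The higher ones included Anln, Selenop, Shroom3, Crybg3, Kdr and Mtss1. Selenop had log2 ratios of 0.84 and 1.16, and Mtss1 had 0.82 and 0.86. Of the 7 measured genes of the literature list for the Klk6 type, 0 passed either way, with medians of 0.07 and 0.14.

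Over all oligodendrocytes thinned to 2000 UMIs, the genes that ranked with the summed Klk6 and Serpinb1a count were Trf, S100b, Selenop, Apod, Fth1, Pmp22, Anln and Gng11 among 5207 genes. Spearman's rho was 0.35 for Trf in 1484 SD cells and 0.34 in 877 SD+RS cells, and 0.33 and 0.33 for S100b. Ptgds ranked most opposite, at -0.385 and -0.364. These are weak correlations in sparse counts from cells of a shared library and are given as a description only.

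The authors' deposited tables of cluster markers, 1 per library and 1 over both, each list a cluster with Anln, Hapln2, Opalin and Il33. Klk6, Serpinb1a or both were listed for it too. In the authors' deposited table over both libraries, cluster i1 had Klk6 in 14.6% of its cells, Serpinb1a in 47%, Anln in 74.2% and Hapln2 in 84.1%. The authors' deposited table gave Opalin in 86.1% and Il33 in 86.8% of the cells of that cluster. Of all oligodendrocytes here, 16.1% in SD and 19.0% in SD+RS held a Klk6 UMI. A Serpinb1a UMI was held by 60.8% and 67.0%. The cells of cluster i1 were not matched to the oligodendrocytes here, so these shares are given side by side only. In the authors' deposited table for SD, cluster 24 listed Klk6 in 11.8% of cells and Anln in 75%, with no row for Serpinb1a. In the authors' deposited table for SD+RS, cluster 27 listed Serpinb1a in 50% and Anln in 62.5%, with no row for Klk6. The p-values of these tables are over cells and are not used here.

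The SD+RS members were then set against the SD members. Here a gene was called when its ratio passed 1.5-fold and its interval excluded 1, which gave 325 genes higher in SD+RS (3.41% of 9538) and 521 lower (5.46%). The median log2 ratio over all genes was -0.02. The markers of the cells themselves were not called, but the rule set a minimum of Klk6 and Serpinb1a UMIs in both libraries. Levels of this pair within members are therefore partly fixed by the rule. Klk6 was at 210 in SD and 179 in SD+RS, a log2 ratio of -0.23 (-0.35 to -0.11). Serpinb1a was at 345 and 360 (0.06, -0.03 to 0.14). Over all oligodendrocytes Klk6 was at 115 in SD and 110 in SD+RS, and Serpinb1a at 205 and 235. Anln was at 465 and 368 (-0.34), and Hapln2 at 652 and 644 (-0.02). Hopx was lower, at 54.5 and 35.8 (-0.61, -0.86 to -0.36), and in Klk6-high cells at 258 and 146 (-0.82). Opalin was higher, at 377 and 740 (0.97, 0.90 to 1.04). In Klk6-high cells it was at 131 and 446 (1.77), with 12.6% of the SD+RS UMIs from 1 cell, and in cells with neither transcript at 595 and 1241 (1.06). In the myelin list Opalin was the only 1 of 22 genes called, and the median was 0.13.

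Genes induced by the glucocorticoid receptor, the nuclear receptor for stress steroids, were lower in SD+RS members in 15 of 18 cases and higher in 0, with a median log2 ratio of -0.96. Sgk1, a serum and glucocorticoid regulated kinase, was at 2122 in SD and 545 in SD+RS (-1.96, -2.02 to -1.91). Fkbp5, the chaperone that restrains the receptor, was at 24.7 and 4.93 (-2.33). Zbtb16, a zinc finger repressor, was at 95.1 and 21.9 (-2.12), and Cdkn1a, a cell cycle inhibitor, at 118 and 28.1 (-2.07). Nfkbia, the inhibitor of NF-kappa-B, was at 202 and 53.4 (-1.92). Tsc22d3, known as GILZ, was lower by less, at 226 and 130 (-0.80). No cell gave more than 1.14% of the Sgk1 UMIs in members of either library. The list was lower in the other classes too. In cells with neither transcript 19 of 19 were lower (median -1.71), and in Klk6-high cells 10 of 12 (-0.99). The summed 6 astrocyte markers were also lower in cells with neither transcript, at 653 CPM in SD and 241 in SD+RS. The part of astrocyte RNA in the drop of that class was not tested.

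One start of Sgk1 is shown because its window carries the full palindrome of a glucocorticoid response element. The window is chr10:21993640-21993889 on the plus strand of GRCm38.p6, before the RefSeq start at 21993890, and capitals mark AGAACA and TGTTCT with any 3 bases between them, a motif that reads the same on both strands.
Sgk1: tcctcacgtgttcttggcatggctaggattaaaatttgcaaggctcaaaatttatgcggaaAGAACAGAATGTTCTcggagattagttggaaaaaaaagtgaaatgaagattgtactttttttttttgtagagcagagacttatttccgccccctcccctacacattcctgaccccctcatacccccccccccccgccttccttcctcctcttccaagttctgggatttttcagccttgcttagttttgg
Windows of 5 other Sgk1 starts held 0 matches. The full palindrome was found in 3 of 32851 promoters (0.00913%). Among the 19 glucocorticoid genes with an entry, Sgk1 alone held it in these 250 bases. Looser or more distant elements were not searched, and which start the UMIs came from was not measured.

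Heat shock genes, the chaperones made when proteins unfold, were lower in SD+RS members in 11 of 19 cases and higher in 0 (median -0.67). Hspa1a was at 45.0 in SD and 7.66 in SD+RS (-2.55), and Hspa1b, a near-identical copy whose reads cannot be fully told apart, was at 48.7 and 8.57 (-2.51). Hsph1, an exchange factor of the Hsp70 chaperones, was at 168 and 52.9 (-1.67), and Ahsa2, an activator of Hsp90, at 118 and 40.1 (-1.55). Dnajb1, the main heat-inducible Hsp40, was at 39.8 and 17.5 (-1.19). The constitutive chaperone Hspa8 was at 2784 and 1869, a ratio of -0.58 that did not pass 1.5-fold. Of 17 genes of the unfolded protein response, 6 were lower and 0 higher (median -0.48), among them Hspa5, the main chaperone of the endoplasmic reticulum, at 318 and 183 (-0.80), and the transcription factor Xbp1, at 66.5 and 36.5 (-0.87). The heat shock letters GAA, TTC and GAA, each pair parted by any 2 bases, on either strand, stood in the promoter windows of Hspd1 and Hspe1, 2 of 16 genes of the list with an entry, and in 0.466% of all promoters.

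RNA-binding proteins of the cold-inducible list ran the other way in 3 of 6 cases. Rbm3 was at 29.4 in SD and 87.7 in SD+RS (1.58, 1.35 to 1.81), and Cirbp at 55.7 and 142 (1.35, 1.17 to 1.52). The splicing factor Srsf5 was at 186 and 361 (0.96), while Srsf3 was lower, at 307 and 201 (-0.61). Rbm3 and Cirbp are known to increase at lower temperature. In Klk6-high cells Rbm3 was at 27.9 and 98.2 (1.82), and in cells with neither transcript at 33.0 and 74.9 (1.18).

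Cholesterol genes, which supply the main lipid of myelin, were higher in 6 of 23 cases and lower in 0, with a median of 0.43. They included Mvk, Lss, Nsdhl, Hsd17b7 and Dhcr7, enzymes of the synthesis pathway. Mvk was at 18.3 and 39.4 (1.11) and Dhcr7 at 28.3 and 48.3 (0.77). In Klk6-high cells 9 of 18 were higher (median 0.58) and in cells with neither transcript 10 of 21 (0.58). The median of the members depended on the cells used. It was 0.17 among cells with 3000 to 10000 UMIs and 0.68 among cells with only Y-linked UMIs (141 members in SD and 54 in SD+RS). The sterol response letters ATCAC and CCAC with any base between them, on either strand, were in 0 of 16 windows of the list and in 0.192% of all promoters. Of 18 fatty acid and sphingolipid genes 2 were higher, the elongases Elovl6 at 67.3 and 102 (0.60) and Elovl7 at 181 and 297 (0.72).

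**Figure D4:**
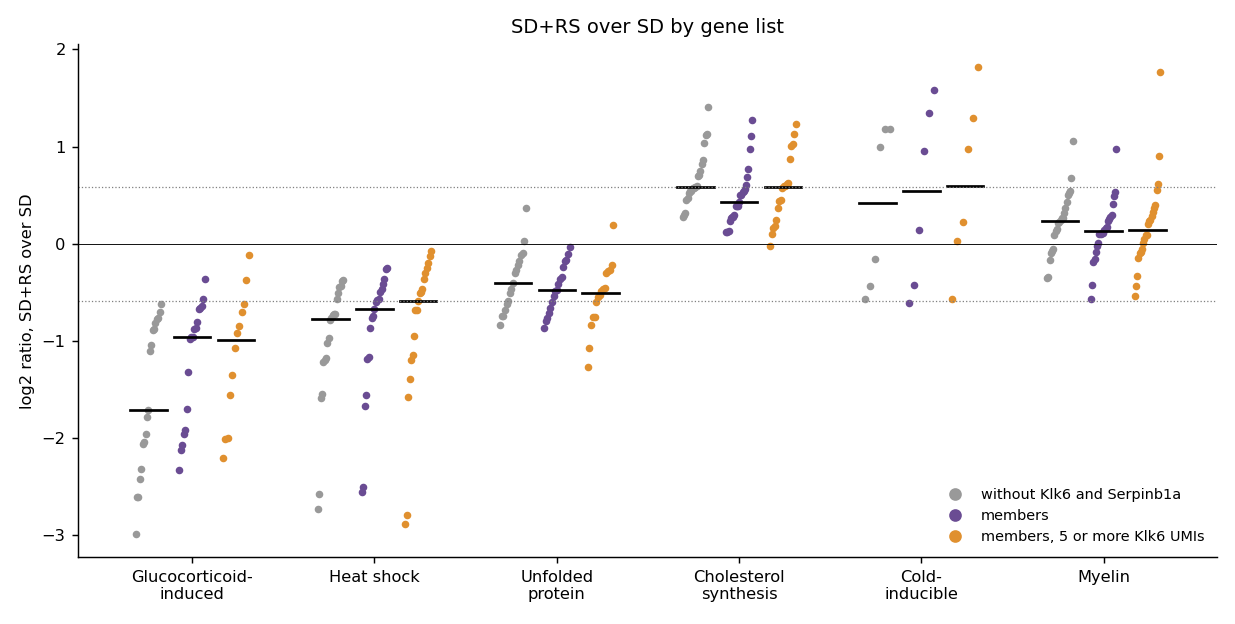
Log2 ratio of SD+RS over SD (y axis) for each measured gene of 6 lists (x axis), in oligodendrocytes with neither transcript (grey), all members (purple) and Klk6-high members (orange); black bars are medians and dotted lines mark 1.5-fold. Glucocorticoid-induced genes lie lowest, with medians of -1.71, -0.96 and -0.99, and the myelin list lies near 0.

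Of 9 measured immediate early genes, which report recent cell activity, 3 were lower (Junb, Egr1 and Nr4a1) and 0 higher. Fos itself was at 33.1 and 29.6 (-0.16, -0.46 to 0.13). The median of the list, -0.16, changed sign with the cells used, from -0.77 in Xist-only members to 0.45 in members with only Y-linked UMIs. The latter numbered 141 in SD and 54 in SD+RS. Of 16 clock genes, 2 were lower (Per1 and Rorb) and 0 higher. Per1 is also a glucocorticoid target and was at 21.2 and 11.5 (-0.88). Of 18 measured receptor genes Grm7 was higher and Gria3, Grin1 and Gabbr2 were lower. All 13 mitochondrially encoded genes stayed within 1.5-fold, with a median of -0.13.

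Among other genes named by the ranking, Hist1h1c, a linker histone, was at 32.4 and 98.3 (1.601), Ctps, which makes CTP, at 9.79 and 34.3 (1.81), and Ninj1, a plasma membrane protein, at 12.4 and 37.9 (1.61). In the SD+RS Klk6-high cells 46.2% of the Ninj1 UMIs came from 1 cell. Adipor2, an adiponectin receptor, was at 419 and 158 (-1.40) in members, at 510 and 186 in Klk6-high cells (-1.45) and at 294 and 109 in cells with neither transcript (-1.43). Several of the most extreme genes came from single cells. One SD+RS cell gave 97.8% of the Acta2 UMIs of members, 94.7% of Tagln and 96.2% of Myl9, genes of smooth muscle. One SD cell gave 90.0% of Lyz2 and 1 gave 63.3% of Vtn. The 6 microglia markers summed to 527 UMIs in SD members, 36.6% of them from 1 cell, and to 12 in SD+RS members. C1qa, C1qb and Csf1r of this set were lower in SD+RS members, as were C1qc, Tyrobp and Ctss, which are also known from microglia. Neuron markers were at 207 CPM in SD members and 153 in SD+RS members, with Snap25, Syt1 and Stmn2 lower. Astrocyte markers were at 260 and 204 in members, and at 653 and 241 in cells with neither transcript. The part of RNA from other cells in the library contrast was not tested. Without cells that held 3 or more microglia, endothelial or mural marker UMIs, an alternative added after seeing the data, 320 genes were higher and 505 lower. The number of genes measured at that setting was not listed. Of the 12 genes ranked first in each direction, 3 of the higher and 9 of the lower fell under the UMI minimum there, among them Acta2, Tagln, Lyz2, Vtn and C1qa.

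Calls were shared in part with cells that held neither transcript. Over 8388 genes measured in both classes, 246 were higher in SD+RS members and 302 in SD+RS cells with neither transcript. Of these, 125 were shared, 50.8% of the first set and 41.4% of the second. Of 426 and 670 lower genes, 268 were shared, 62.9% and 40.0%. The class of cells with neither transcript had 3.62% of 8449 genes higher and 8.29% lower. Klk6-high members had 4.52% of 5331 higher and 3.96% lower, and members without Klk6 had 3.22% of 8606 higher and 5.78% lower. The difference between these ratios was not tested.

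The pools differed in sex among these cells. Of members with a sex call, 67.9% in SD (298 of 439) and 84.3% in SD+RS (290 of 344) held Xist and no Y-linked UMI. In Klk6-high members the shares were 67.7% of 65 and 92.3% of 39. Within each library the member share was higher among Xist-only oligodendrocytes, at 46.3% in SD (42.4 to 50.3) and 52.1% in SD+RS (47.8 to 56.3), than among Y-only ones, at 36.2% (31.4 to 41.1) and 41.5% (33.0 to 50.5). The part of sex, depth and mouse in this was not tested. Within each sex the glucocorticoid and heat shock medians were below 0. The glucocorticoid median was -1.29 in Xist-only members and -0.87 in Y-only members, and the heat shock median -0.46 and -0.77. Sex and recovery sleep cannot be fully told apart in counts over all members.

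The SD members summed to 7559046 UMIs and the SD+RS members to 5482104. The median mitochondrial share was 7.17% and 6.72%. A doublet caller marked 31 SD members (4.81%) and 14 SD+RS members (3.08%), and 0 and 2 of the Klk6-high cells. Of the cells with neither transcript it marked more, 47 in SD (8.35%) and 14 in SD+RS (4.90%). The libraries shared 23 barcode sequences, of which 4 belonged to SD members and 2 to SD+RS members, with 0 a member in both.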

How the data were processed

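Raw UMI counts per gene and cell were used as deposited, with 31054 genes in each matrix. Cell Ranger 3.0.2 wrote them, per the file headers, and Seurat 4.0.4 and the mm10 build are named in the submitters' processing notes. The deposited cluster tables give the fraction of a cluster's cells with a gene, which is printed as a percent. They also hold p-values and log fold changes by the authors, read as natural log from the column name because no log base is stated. Neither was used. A deposited table comparing sets of neurons was not used. Some genes are not reported here.

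UMIs were summed per class and library and scaled to counts per 1000000 UMIs of that sum (CPM). Intervals are 95%, exact Poisson for levels, Clopper-Pearson for shares and exact conditional binomial for ratios, and cover counting error only. A gene was measured with at least 50 UMIs over the classes or libraries compared (in each library for classes). A ratio against 0 UMIs used a floor of 3 counts and is a lower bound. With 1 library per group no model across samples was fitted.

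Genes were named by rank: the 12 highest and 12 lowest called genes by the smaller log2 ratio of the 2 libraries, or by the interval bound nearest 0 between libraries, plus any gene of the lists. The 8 genes most like the pair had at least 200 UMIs. The members, gene lists and rules were chosen with earlier results of these data known. Doublets were marked with Scrublet (scanpy 1.11.5, expected 6%) and left in, as an alternative removed. Other classes were cells with at least 10 UMIs of their markers. Python 3.11.15, numpy 2.4.6, scipy 1.17.1, pandas 2.3.3 and matplotlib 3.10.9 were used. The contrasts were run on simulated Poisson counts with changed genes. That simulation had no spread between cells and no selection of cells, so it does not measure false calls from these.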

Additional observations from a re-analysis of the deposited data

Results flagged for a closer look

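Called genes that ran opposite ways between the libraries in members and in oligodendrocytes with neither transcript numbered 4, and the difference was not tested. The log2 ratio of SD+RS over SD was 4.65 in members and -1.80 in cells with neither transcript for Acta2, 4.30 and -2.06 for Tagln, 1.79 and -0.69 for Crip1, and 1.06 and -0.94 for Sox9. Acta2 and Tagln are contractile genes of smooth muscle, and Sox9 is a glial transcription factor of astrocytes and precursors. One cell gave 97.8% of the Acta2 UMIs of SD+RS members, 94.7% of Tagln, 65.9% of Crip1 and 13.6% of Sox9. Among cells with neither transcript, 1 SD+RS cell gave 100% of Acta2, 94.1% of Tagln and 84.8% of Crip1, and 1 SD cell gave 45.5% of Acta2, 49.2% of Tagln and 32.4% of Crip1.

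The neuron gate left out cells that held enough myelin gene UMIs. Of 134 such cells in SD, 36 (26.9%) held 2 or more UMIs of Klk6 and Serpinb1a, 11 of them with 5 or more Klk6 UMIs. Of 78 in SD+RS, 27 (34.6%) did, 6 of them with 5 or more. The median UMI count of the cells left out by this gate was 27412.5 in SD and 28913 in SD+RS, above the 9669 and 9712 of members.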

How the results depend on the processing

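With 1 library per group, leaving out a replicate could not be run. No paired analysis was possible because each group has 1 library. The share of members in SD and SD+RS was 31.7% and 39.4% at 3 or more UMIs, 62.2% and 67.8% at 1 or more, 33.6% and 40.4% among cells with 3000 to 10000 UMIs, and 12.7% and 14.8% after thinning. Genes lower in members than in cells with neither transcript numbered 46 at 3000 to 10000 UMIs, 319 with no minimum, 123 by the mean over cells and 82 without cells holding a Gpr17, Bmp4 or Tnr UMI. At 3000 to 10000 UMIs, Klk6-high over Klk6-zero members gave 101 higher and 59 lower. Between libraries, members gave 167 higher and 343 lower at 3000 to 10000 UMIs, 830 lower with no minimum, 333 lower in Xist-only cells, and 137 higher and 304 lower in Y-only cells. Klk6-high members gave 38 and 49 at 3000 to 10000 UMIs, 480 and 319 with no minimum, 132 and 108 in Xist-only cells, 42 and 32 in Y-only cells, and 158 higher without cells holding Gpr17, Bmp4 or Tnr. The Y-only Klk6-high cells numbered 21 in SD and only 3 in SD+RS. Fewer cells or genes entered each of these counts of called genes except those with no minimum, where more genes did, and those by the mean over cells, where the cause was not tested. The number of genes measured at each setting was not listed, so these counts have no share beside them. Signs turned at 3000 to 10000 UMIs for the median of the committed precursor list in SD (1.81, members over cells with neither transcript). That median takes only list genes past the UMI minimum, and Gpr17 fell under it at this setting. At the main setting 4 genes of the list were measured, with Enpp6 higher and Gpr17 and Itpr2 lower. Signs also turned at 3000 to 10000 UMIs for Ntrk2 (0.089) and Agt (0.999) in Klk6-high over Klk6-zero members. The cause of these turns was not tested. The other 85 shares and counts of genes stayed within 1.5 times, or for shares within counting error. Named genes that fell under 50 UMIs at a setting have no value there.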
